A study of Mus musculus with 21 samples.

Results

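Activity-dependent immediate early genes are genes whose transcription starts within minutes of neuronal firing without the need for new protein. The set described here held 10 genes grouped under this name, Arc, Fos, Fosb, Junb, Egr1, Egr3, Egr4, Npas4, Nr4a1 and Bdnf. They were chosen by name and found as 10 of the 64361 gene rows of the count table. Their levels were read in both tissues, cortex and hippocampus, of control mice and of GA-Camk2a mice. GA-Camk2a mice carry a transgene for GFP-tagged poly-GA, the dipeptide repeat protein made from the expanded C9orf72 repeat in amyotrophic lateral sclerosis. Camk2a-Cre switches the transgene on in excitatory neurons, so the other cell types of the tissue carry it in a silent form. The lines were kept on a C57BL/6J background, and all mice were between 30 and 40 weeks old when killed, an age at which GA-Camk2a mice come to their humane endpoint. The labels call the other mice only ctrl, and whether these carried Cre or the silent transgene is not given there. The groups were cortex control (n = 5), cortex GA-Camk2a (n = 6), hippocampus control (n = 4) and hippocampus GA-Camk2a (n = 6). By the numbers in the labels they came from 11 mice, of which 10 gave both tissues and control mouse 38 gave cortex alone. The comparison asks how the transcripts that follow neuronal activity stand in brain regions whose excitatory neurons make poly-GA.

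Synaptic activity lets calcium into the neuron, and the calcium signal runs through calmodulin-dependent and other kinases to transcription factors that already sit on the promoters, chiefly CREB at cAMP response elements (CRE), and SRF with its partners at CArG boxes. The members encode further transcription factors (the FOS and JUN proteins of AP-1, the EGR zinc fingers, NPAS4, the nuclear receptor NR4A1) and proteins that act at synapses (Arc, BDNF). Their transcripts are short-lived, so a level read in dissected tissue reflects the recent state of the animal as well as the cells present.

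The 21 libraries held between 1048201 and 5888102 counts, with a median of 1975173. Levels are given as counts scaled to the library's total (CPM), and differences between groups as log2 fold changes with their standard error from edgeR's quasi-likelihood test, adjusted over all genes tested. A gene is said to have risen or fallen where its adjusted p was below 0.05. The tissue labels were checked against fixed markers. The 5 hippocampus markers, Prox1 among them, were higher in hippocampus than in cortex of control mice in 5 of 5 cases. Of the 4 cortex markers, Cux2 (-1.40) and Tbr1 (-1.21) were lower in hippocampus, Fezf2 (0.50, adjusted p = 0.0338) was higher, and Rorb stood at 1.01 and did not pass (adjusted p = 0.228). In GA-Camk2a mice 2 of the 4 were lower and 2 higher in hippocampus. The hippocampus libraries differed in the tissue they held beside hippocampus. The summed level of 4 choroid plexus markers ran from 1803 to 55449 CPM over them, and the level of Rorb, fixed as a cortex marker and also strong in thalamus, ran from 86.6 to 1455 CPM in control and from 103 to 5303 CPM in GA-Camk2a hippocampus.

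Promoter sequences were looked up to show what the members share beside their response. They are RefSeq sequences of the build GRCm38.p6, which is not the build of the counts. Of the 10 members, 7 matched, and Arc, Egr1 and Egr3 had no entry. The core of the cAMP response element, TGACG, was searched on both strands of the 300 bases around each start, 250 before and 50 after. It was present in 7 of 7 members, while 20.8% of all 32851 promoters of that length held it. Bdnf is counted by 1 of its 7 promoters. For every motif a member was counted where any of its promoters held it, while the shares are of single promoters. The full palindrome TGACGTCA, which contains the core site, was in 0 of 7 (1.79% of all), the CArG box in 0 of 7 (1.63%) and the AP-1 motif TGACTCA in 0 of 7 (5.2%). The EGR motif GCGGGGGCG was in 2 of 7, Fosb and Nr4a1 (2.91% of all), GCGTGGGCG in 0 of 7 (0.612%), and the NPAS4 motif TCGTG in 4 of 7 (16%). A match of letters is a description and does not show that a factor binds there. Sites beyond this window were not searched, so a 0 does not mean that the site is absent further out.

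The 250 bases before the start are printed for 4 of the members that fell, Nr4a1 and Egr4 in both tissues of GA-Camk2a mice, Fos in cortex and Junb in hippocampus. Capitals mark the core site, read as TGACG or, on the other strand, as CGTCA. The promoters are Nr4a1 at chr15:101266596-101266845 on the plus strand, Egr4 at chr6:85513590-85513839 on the minus strand, Fos at chr12:85473640-85473889 on the plus strand and Junb at chr8:84978749-84978998 on the minus strand.
Nr4a1: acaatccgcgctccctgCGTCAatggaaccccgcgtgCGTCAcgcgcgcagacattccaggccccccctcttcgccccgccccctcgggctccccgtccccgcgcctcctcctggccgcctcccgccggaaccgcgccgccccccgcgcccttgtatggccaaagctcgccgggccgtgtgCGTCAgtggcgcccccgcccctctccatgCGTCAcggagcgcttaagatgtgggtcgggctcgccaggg
Egr4: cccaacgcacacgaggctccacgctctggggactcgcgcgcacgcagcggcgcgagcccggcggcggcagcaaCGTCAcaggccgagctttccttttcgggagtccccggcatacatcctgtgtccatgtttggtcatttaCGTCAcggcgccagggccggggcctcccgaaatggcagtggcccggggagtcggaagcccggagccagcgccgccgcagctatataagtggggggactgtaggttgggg
Fos: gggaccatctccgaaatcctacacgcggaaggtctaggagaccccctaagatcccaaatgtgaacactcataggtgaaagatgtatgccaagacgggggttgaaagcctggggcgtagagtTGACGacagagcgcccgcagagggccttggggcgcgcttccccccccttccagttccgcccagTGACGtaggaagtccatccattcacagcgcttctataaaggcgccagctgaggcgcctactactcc
Junb: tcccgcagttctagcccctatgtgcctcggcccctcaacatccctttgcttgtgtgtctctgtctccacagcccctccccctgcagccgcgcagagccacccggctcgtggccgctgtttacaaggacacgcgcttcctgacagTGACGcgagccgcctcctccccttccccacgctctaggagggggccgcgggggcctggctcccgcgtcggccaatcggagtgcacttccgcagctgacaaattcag

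In this window Nr4a1 held 4 core sites, starting 233, 213, 69 and 40 bases before the start, and Egr4 held 2, at 177 and 109 bases. Fos held 2, at 129 and 66 bases, and Junb held 1, at 106 bases.

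On the scale set by all genes, Arc, Egr1, Egr3, Egr4 and Nr4a1 fell in cortex and in hippocampus of GA-Camk2a mice, with log2 fold changes from -0.67 for Nr4a1 in hippocampus to -1.63 for Arc in cortex. Fos fell in cortex and Junb in hippocampus, neither passed the test in the other tissue, and neither Fosb nor Bdnf passed the test in either tissue. Without the filter on low counts Junb in cortex and Bdnf in hippocampus passed as well. Npas4 was left out of the genotype tests by the filter on low counts. Of the 9 members tested in each tissue, 6 fell in cortex and 6 fell in hippocampus, and 0 rose in either tissue. With libraries scaled to excitatory neuron markers of equal weight, which moved the median of all genes in hippocampus from 0.02 to 0.97, the sign of Egr3, Nr4a1, Junb and Bdnf there turned positive, and each stayed below that median. Over all genes tested, 6.17% fell and 6.35% rose in cortex, and 5.97% fell and 4.97% rose in hippocampus. The median log2 fold change of the members tested was -0.84 in cortex and -0.67 in hippocampus, against -0.01 and 0.02 over all genes tested.

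**Figure D1:**
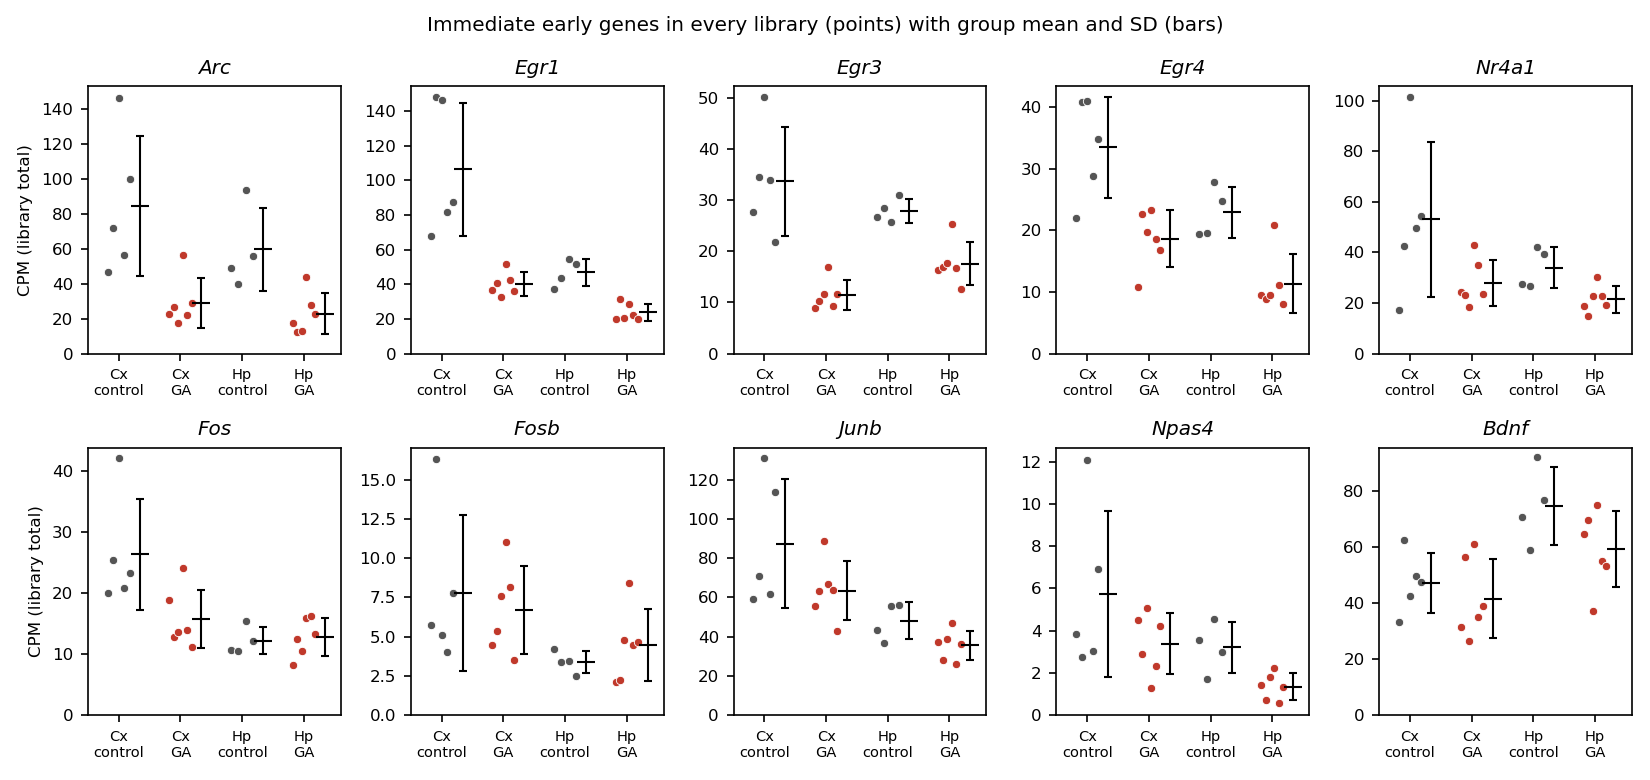
Each panel shows 1 gene, with the level in CPM of the library total on the vertical axis and 1 point for each library of cortex (Cx) and hippocampus (Hp), controls in grey and GA-Camk2a in red. The bars give the group mean and SD. For Egr1 and Egr3 every GA-Camk2a point lies below every control point of the same tissue. For Fos the hippocampus groups lie on top of each other.

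Arc encodes a cytoskeleton-associated protein of the postsynapse that drives the removal of AMPA receptors and forms capsid-like particles. In control cortex it read 46.7 CPM in mouse 11, 71.8 in mouse 20, 146 in mouse 31, 56.2 in mouse 37 and 99.7 in mouse 38, a mean of 84.1 ± 40.1 (SD, n = 5). In GA-Camk2a cortex it ran from 17.2 over a median of 24.4 to 56.5 CPM, a mean of 28.9 ± 14.1 (SD, n = 6). Here 5 of 6 GA-Camk2a libraries lay below every control, and the exception was mouse 34 at 56.5 CPM. The fall was 1.63 on the log2 scale (SE 0.23, edgeR adjusted p = 4.04e-05). In control hippocampus Arc read 49.0 CPM in mouse 11, 39.7 in mouse 20, 93.4 in mouse 31 and 55.9 in mouse 37. In GA-Camk2a hippocampus it ran from 12.5 over a median of 20.0 to 43.9 CPM, again with mouse 34 highest and alone in reaching the range of the controls. The fold change there was -1.37 (SE 0.30, adjusted p = 0.00736).

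Egr1 encodes a zinc finger transcription factor induced by synaptic stimulation and needed for late phases of plasticity. In control cortex it read 67.7 CPM in mouse 11, 148 in mouse 20, 147 in mouse 31, 81.5 in mouse 37 and 87.6 in mouse 38. In GA-Camk2a cortex it ran from 32.4 over a median of 38.6 to 52.0 CPM. The groups did not overlap, and the log2 fold change was -1.39 (SE 0.17, adjusted p = 8.24e-06). Control hippocampus held 37.3 CPM in mouse 11, 43.6 in mouse 20, 54.7 in mouse 31 and 52.0 in mouse 37. GA-Camk2a hippocampus ran from 20.0 over a median of 21.5 to 31.6 CPM, so that here too the groups stood apart. The log2 fold change was -1.02 (SE 0.15, adjusted p = 0.000356).

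Egr3, a related zinc finger factor, read 27.7 CPM in mouse 11, 34.5 in mouse 20, 50.2 in mouse 31, 33.9 in mouse 37 and 21.9 in mouse 38 of the control cortex. In GA-Camk2a cortex it ran from 8.99 over a median of 10.9 to 16.9 CPM. The groups did not overlap, and the log2 fold change was -1.55 (SE 0.21, adjusted p = 2.14e-05). In hippocampus the controls lay close together, at 26.6 CPM in mouse 11, 28.4 in mouse 20, 25.6 in mouse 31 and 31 in mouse 37. GA-Camk2a hippocampus ran from 12.7 over a median of 16.8 to 25.3 CPM. The highest of these, again mouse 34, fell just short of the lowest control, and the log2 fold change was -0.72 (SE 0.15, adjusted p = 0.00514). Egr1 and Egr3 were thus the 2 of 10 members with every GA-Camk2a library below every control in cortex, and the 2 of 10 in hippocampus. Over all genes tested the same held for 2.67% in cortex and 4.02% in hippocampus.

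Egr4, the fourth zinc finger of the family, read 21.9 CPM in mouse 11, 40.9 in mouse 20, 41 in mouse 31, 28.9 in mouse 37 and 34.9 in mouse 38 of the control cortex. GA-Camk2a cortex ran from 10.8 over a median of 19.2 to 23.4 CPM. Of the GA-Camk2a libraries 4 of 6 lay below every control, and the log2 fold change was -0.84 (SE 0.17, adjusted p = 0.00181). In hippocampus the controls held 19.5 CPM in mouse 11, 19.5 in mouse 20, 27.9 in mouse 31 and 24.8 in mouse 37. GA-Camk2a hippocampus ran from 8.01 over a median of 9.56 to 20.8 CPM. All but mouse 34 lay below every control, and the log2 fold change was -1.03 (SE 0.22, adjusted p = 0.00719). With all libraries thinned to the counts of the smallest, Egr4 in hippocampus stood at -0.78 and missed the threshold (adjusted p = 0.152).

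Nr4a1 encodes an orphan nuclear receptor, NUR77, that is induced by growth factors and by membrane depolarisation. In control cortex it read 17.2 CPM in mouse 11, 42.7 in mouse 20, 101 in mouse 31, 49.6 in mouse 37 and 54.6 in mouse 38. In GA-Camk2a cortex it ran from 18.2 over a median of 23.9 to 42.9 CPM. Control mouse 11 lay with the lowest GA-Camk2a libraries, while 3 of 5 controls lay above every GA-Camk2a library. The log2 fold change was -1.03 (SE 0.26, adjusted p = 0.00993), and without control mouse 31 it was -0.65 and missed the threshold (adjusted p = 0.0984). Without mice 31 and 34 together it passed (-0.80, adjusted p = 0.0267). Nr4a1 in cortex also missed the threshold with DESeq2 (-0.92, adjusted p = 0.153), with DESeq2 without batch (-0.92, adjusted p = 0.122) and with limma-voom (-0.78, adjusted p = 0.0561). In hippocampus the controls held 27.6 CPM in mouse 11, 26.7 in mouse 20, 42.2 in mouse 31 and 39.4 in mouse 37, and GA-Camk2a mice from 14.7 over a median of 21 to 30.2 CPM. In hippocampus 5 of 6 GA-Camk2a libraries lay below every control, and the log2 fold change was -0.67 (SE 0.18, adjusted p = 0.0255). This call was lost in 4 of 10 fits that left out 1 library, namely controls 31 and 37 and GA-Camk2a mice 16 and 23, with adjusted p up to 0.109. The log2 fold changes in those fits ran from -0.56 to -0.62.

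The 3 members of the AP-1 family are Fos, Fosb and Junb. AP-1 is a dimer of a FOS and a JUN protein, and FOS protein is the most widely used histological mark of recently active neurons. Fos read 20.0 CPM in mouse 11, 25.4 in mouse 20, 42.1 in mouse 31, 20.8 in mouse 37 and 23.3 in mouse 38 of the control cortex. GA-Camk2a cortex ran from 11.2 over a median of 13.8 to 24.0 CPM, and 5 of 6 libraries lay below every control. The log2 fold change was -0.83 (SE 0.21, adjusted p = 0.0111), and without control mouse 31 it was -0.56 with an adjusted p of 0.0987. In hippocampus Fos read 10.7 CPM in mouse 11, 10.5 in mouse 20, 15.4 in mouse 31 and 12.1 in mouse 37 of the controls, and from 8.15 over a median of 12.9 to 16.2 CPM in GA-Camk2a mice. The GA-Camk2a range enclosed all 4 controls, and the log2 fold change was 0.04 (SE 0.20, adjusted p = 0.930).

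Fosb encodes the family member whose truncated form builds up over days of stimulation, and its row holds both forms. It was low, with 3 to 28 counts per library. Control cortex ran from 4.05 to 16.3 CPM and GA-Camk2a cortex from 3.50 to 11 CPM, with a log2 fold change of -0.12 (SE 0.33, adjusted p = 0.871). Control hippocampus ran from 2.51 to 4.22 CPM and GA-Camk2a hippocampus from 2.13 to 8.43 CPM, with 0.37 (SE 0.35, adjusted p = 0.562). Groups overlapped in both tissues.

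Junb encodes a JUN partner of FOS proteins. In control cortex it read 59.1 CPM in mouse 11, 70.8 in mouse 20, 131 in mouse 31, 61.8 in mouse 37 and 114 in mouse 38, and in GA-Camk2a cortex from 42.7 over a median of 63.3 to 88.6 CPM. The groups overlapped, while 2 of 5 controls exceeded the highest GA-Camk2a library and 2 of 6 GA-Camk2a libraries fell short of the lowest control. At -0.51 (SE 0.17) the log2 fold change missed the threshold, with an adjusted p of 0.0530. It passed without the filter on low counts (-0.53, adjusted p = 0.00138), with thinned counts (-0.52, adjusted p = 0.0439) and in 4 fits that left out 1 library, control 11 or 37 or GA-Camk2a 30 or 35. In hippocampus the controls held 43.5 CPM in mouse 11, 36.9 in mouse 20, 55.8 in mouse 31 and 56.3 in mouse 37, and GA-Camk2a mice from 26.2 over a median of 36.6 to 47.0 CPM. The log2 fold change was -0.47 (SE 0.14, adjusted p = 0.0452). That call was lost in 7 of 10 fits without 1 library (controls 20, 31 and 37, GA-Camk2a mice 16, 23, 30 and 35), with adjusted p up to 0.148. The log2 fold changes in those fits ran from -0.36 to -0.55. The call was also lost without a batch term (adjusted p = 0.0953), with DESeq2 without batch (adjusted p = 0.0830), with upper quartile normalisation (adjusted p = 0.0511) and with limma-voom (adjusted p = 0.0595).

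Npas4 encodes a transcription factor that calcium entry induces almost only in neurons. It had from 1 to 33 counts per library. Control cortex held 3.82 CPM in mouse 11, 2.72 in mouse 20, 12.1 in mouse 31, 3.04 in mouse 37 and 6.93 in mouse 38, and GA-Camk2a cortex ran from 1.30 over a median of 3.54 to 5.06 CPM. Control hippocampus held 3.57 CPM in mouse 11, 1.70 in mouse 20, 4.56 in mouse 31 and 2.96 in mouse 37, and GA-Camk2a hippocampus ran from 0.557 over a median of 1.38 to 2.22 CPM. The ranges overlapped in both tissues. Fitted without the filter on low counts, Npas4 stood at -0.95 (SE 0.32, adjusted p = 0.0895) in cortex and at -1.17 (SE 0.44, adjusted p = 0.157) in hippocampus, and did not pass the test. In that fit 1.38% of all genes fell in cortex and 1.9% in hippocampus.

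Bdnf encodes the brain-derived neurotrophic factor, a secreted ligand of the receptor TrkB. It is transcribed from several promoters that the count table sums into 1 row. In control cortex it read 33.4 CPM in mouse 11, 62.7 in mouse 20, 42.5 in mouse 31, 49.6 in mouse 37 and 47.7 in mouse 38, and in GA-Camk2a cortex from 26.3 over a median of 36.9 to 61.1 CPM. The ranges overlapped, with a log2 fold change of -0.16 (SE 0.19, adjusted p = 0.649). In hippocampus the controls held 70.8 CPM in mouse 11, 59.1 in mouse 20, 92.3 in mouse 31 and 76.8 in mouse 37, and GA-Camk2a mice from 37.3 over a median of 60.0 to 75.0 CPM. The ranges overlapped and the log2 fold change was -0.37 (SE 0.16, adjusted p = 0.173). Without the filter on low counts it was -0.44 and passed (adjusted p = 0.0123).

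**Figure D2:**
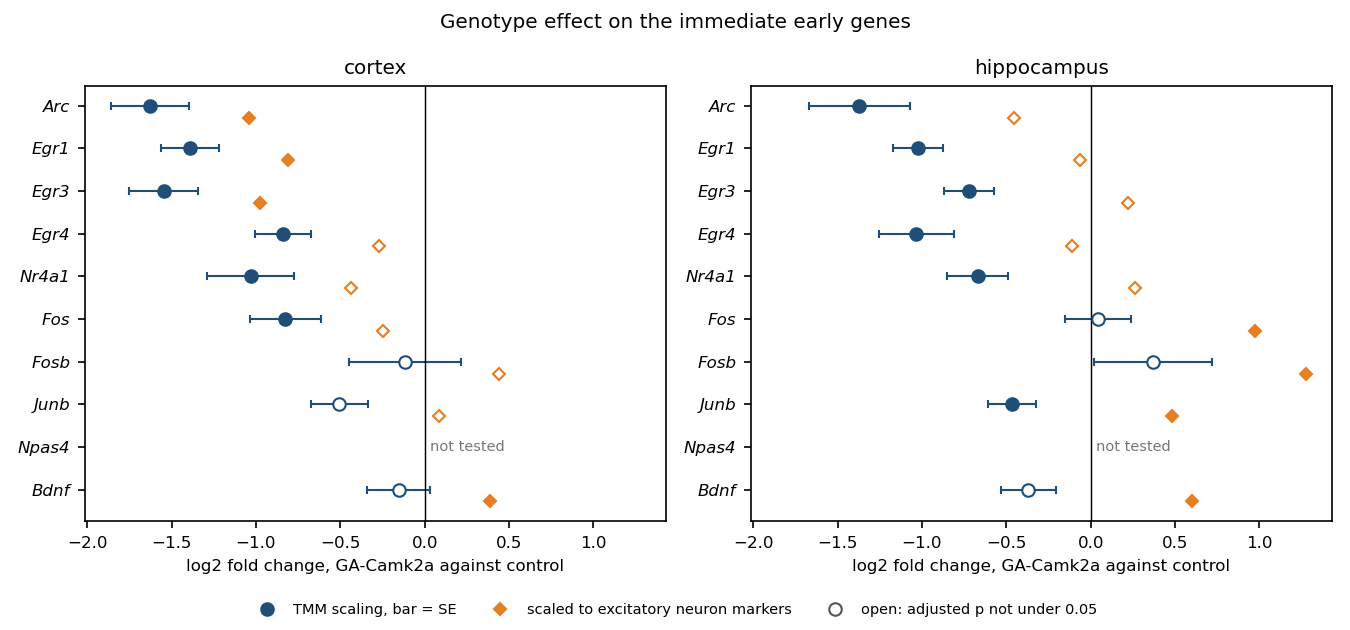
The log2 fold change of GA-Camk2a against control is plotted for each gene in cortex (left) and hippocampus (right). Blue circles with SE bars use the scaling over all genes (TMM), and orange diamonds scale each library to 7 excitatory neuron markers with equal weight. Filled symbols passed an adjusted p of 0.05. With the marker scaling Arc, Egr1 and Egr3 stay below 0 and filled in cortex, where this scaling moves the median of all genes to 0.56 and Bdnf is filled above 0, while in hippocampus, where this scaling moves the median of all genes to 0.97, Egr3 and Nr4a1 lie above 0 and Fos, Fosb, Junb and Bdnf are filled above 0.

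Markers of excitatory neurons, the cells in which the transgene is switched on, moved in the same libraries. The summed level of 7 excitatory neuron markers ran from 1900 to 2401 CPM in control cortex and from 1224 to 1676 CPM in GA-Camk2a cortex. In hippocampus it ran from 2070 to 2616 CPM in controls and from 1097 to 1489 CPM in GA-Camk2a mice. The groups did not overlap in either tissue. Of the 7 markers, 5 fell in cortex with a median log2 fold change of -0.74, and 5 fell in hippocampus with a median of -0.86. In bulk tissue, fewer cells of a type and less RNA per cell cannot be told apart.

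Scaling each library to these markers, each with equal weight, moved all genes and raised their median to 0.56 in cortex and 0.97 in hippocampus. On that scale 67.4% of all genes tested were called higher and 0.429% lower in cortex, and 93.4% higher and 0.0672% lower in hippocampus. Arc (-1.04, adjusted p = 5.69e-05), Egr3 (-0.98, adjusted p = 0.000177) and Egr1 (-0.81, adjusted p = 6.17e-05) were lower in cortex on this scale too. Egr4 (-0.27), Fos (-0.24) and Nr4a1 (-0.44) did not pass the test there. Bdnf in cortex changed sign on this scale and was called higher (0.39, adjusted p = 0.0460), as were 67.4% of all genes, and it lay below their median. In hippocampus 0 members were called lower, with Arc at -0.46 (adjusted p = 0.0791), Egr4 at -0.11 and Egr1 at -0.06, all of them below the median of all genes. This scale was chosen after the values were seen.

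General neuron markers fell in 4 of 6 cases in cortex and in 5 of 6 in hippocampus, with median log2 fold changes of -0.39 and -0.41. Their sums ran from 3661 to 4553 CPM in control and from 2787 to 3185 CPM in GA-Camk2a cortex, and from 3345 to 3754 CPM and from 2317 to 3000 CPM in hippocampus. Inhibitory neuron markers fell in 0 of 6 cases in both tissues, and 1 rose in cortex and 2 in hippocampus, with medians of 0.18 and 0.31. Their sums stood at 985 to 1058 CPM in control and 1095 to 1473 CPM in GA-Camk2a cortex, and overlapped in hippocampus. Of the 5 hippocampus markers, 2 fell in GA-Camk2a hippocampus, Spink8 (-1.57, adjusted p = 6.69e-06) and Fibcd1 (-1.05, adjusted p = 0.00700), and the median of the 5 was -0.22. The part of these markers in the hippocampus result was not tested.

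The 6 striatum markers, among them Drd1 and Adora2a, fell in cortex in 6 of 6 cases with a median log2 fold change of -1.61. Their sum ran from 345 to 522 CPM in control cortex and from 119 to 203 CPM in GA-Camk2a cortex, with 0 of 6 markers at 0 in any control library and at most 1 at 0 in a GA-Camk2a library. In hippocampus, where 3 of them were tested, 0 fell and the sums overlapped, from 76.9 to 118 CPM in controls and from 76.7 to 175 CPM in GA-Camk2a mice. Striatal neurons express several of the members, and the part of the striatum markers in the cortex result was not tested. Within the GA-Camk2a cortex, mouse 34, the library highest in Arc, held 133 CPM of striatum markers, near the low end of its group. Microglia markers rose in 4 of 6 cases in each tissue, with median log2 fold changes of 0.88 for cortex and 0.80 for hippocampus. Those of astrocytes rose in 4 of 6 cases in each, with medians of 0.44 and 0.46. Oligodendrocyte markers rose in 1 of 6 cases in cortex and in 0 of 6 in hippocampus, and endothelium markers passed the test in 0 of 5 and 0 of 6. Of 3 blood markers tested, 2 rose in cortex (median 0.69) and 0 in hippocampus (median 1.16). The summed level of 4 blood markers reached 1643 CPM in GA-Camk2a cortex mouse 34 and 3815 CPM in GA-Camk2a hippocampus mouse 41, against at most 672 CPM in any control library. The part of these cells in the members' results was not tested.

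**Figure D3:**
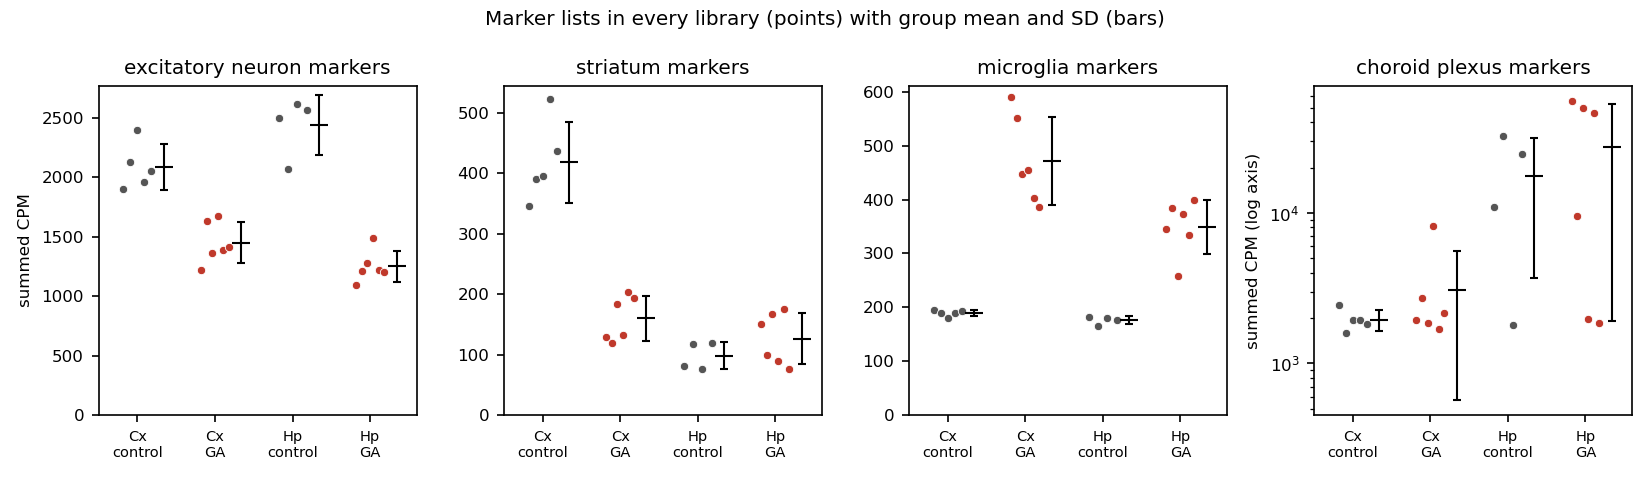
Summed CPM of 4 marker lists is plotted for each library (points) with the group mean and SD (bars), for cortex (Cx) and hippocampus (Hp), controls in grey and GA-Camk2a in red. The choroid plexus panel has a log axis. Excitatory neuron sums are lower and microglia sums higher in GA-Camk2a mice of both tissues without overlap, striatum sums are lower in cortex and overlap in hippocampus, and choroid plexus sums spread from 1803 to 55449 CPM among hippocampus libraries.

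Choroid plexus sums overlapped between the genotypes, at 1803 to 32665 CPM in control and 1843 to 55449 CPM in GA-Camk2a hippocampus. Control mouse 31 and GA-Camk2a mouse 34, the highest hippocampus libraries of their groups in Arc, had choroid plexus sums of 1803 and 1965 CPM. GA-Camk2a mouse 41 had 1843 CPM, and its Arc level was 22.7 CPM. In GA-Camk2a cortex, mouse 34 held 8177 CPM of choroid plexus markers against 1683 to 2717 CPM in the other libraries. The part of the choroid plexus in these levels was not tested. Without the 3 hippocampus libraries highest in Rorb (control 11, GA-Camk2a 16 and 30), Arc (-1.18), Egr1 (-1.01), Egr3 (-0.70), Egr4 (-0.92) and Nr4a1 (-0.69) still fell, while Junb (-0.53) missed the threshold with an adjusted p of 0.0665.

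Within the labelled batches, Arc, Egr1 and Egr3 fell in cortex in each batch alone, where 3% of all genes tested fell in batch 1 and 0.83% in batch 2. The log2 fold changes in batches 1 and 2 were -1.67 and -1.49 for Arc, -1.34 and -1.47 for Egr1, and -1.42 and -1.88 for Egr3. Fos, Egr4 and Nr4a1 fell in batch 1 of the cortex and missed the threshold in batch 2, where 2 controls met 2 GA-Camk2a mice. In batch 2 Egr4 stood at -1.13, a larger fall than with both batches, while the falls of Fos and Nr4a1 were smaller. In hippocampus Arc, Egr1, Egr3 and Egr4 fell in batch 2, where 2.54% of all genes fell. In batch 1 of the hippocampus, where 0.42% of all genes fell, 0 members passed the test, at log2 fold changes of -1.18 for Arc, -1.01 for Egr1, -0.61 for Egr3 and -0.82 for Egr4.

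The tissues were also compared in the effect of genotype itself, since a call in 1 tissue and not in the other does not show a difference. By the interaction test over all 21 libraries 0 of 9 members differed between hippocampus and cortex, and 0.4% of all 14751 genes tested did. At an unadjusted p under 0.05 there were 2 of 9 members, against 10% of all genes. DESeq2, which gave no adjusted p for Fosb, and limma-voom also called 0 members. The estimated difference for Egr3, hippocampus minus cortex, was 0.83 on the log2 scale (SE 0.26, unadjusted p = 0.00441, adjusted p = 0.222). That for Fos was 0.83 as well (SE 0.31, unadjusted p = 0.0124, adjusted p = 0.318). With the mouse as a block, which pairs the 2 tissues of an animal, the difference for Egr3 was 1.00 and passed the test (adjusted p = 0.0311), while that for Fos did not (0.75, adjusted p = 0.278). The difference for Egr3 also passed without control cortex mouse 38 (1.03, adjusted p = 0.0479), and in 0 of the other 20 fits that left out 1 library.

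Between the tissues of control mice, 5 of 10 members were lower in hippocampus than in cortex and Bdnf was higher. Over all genes tested, 7.6% were lower and 8.69% higher. Egr1 (-1.25, SE 0.19), Fos (-1.21, SE 0.21), Fosb (-1.19, SE 0.36), Junb (-0.90, SE 0.18) and Egr4 (-0.64, SE 0.17) fell, with adjusted p from 0.000273 to 0.0304. Bdnf was higher by 0.59 (SE 0.15, adjusted p = 0.0100), and missed the threshold without both libraries of mouse 31 (0.44, adjusted p = 0.0617). Arc (-0.61, adjusted p = 0.127), Nr4a1 (-0.76, adjusted p = 0.0647), Npas4 (-1.04, adjusted p = 0.0596) and Egr3 (-0.30, adjusted p = 0.310) did not pass. Paired by mouse, Arc (-0.42, adjusted p = 0.0468) and Nr4a1 (-0.59, adjusted p = 0.0365) passed as well, and Fosb and Npas4 were not tested. Without the filter on low counts Arc (-0.58, adjusted p = 0.00136) and Nr4a1 (-0.73, adjusted p = 7.27e-05) passed too. Arc also passed without both libraries of mouse 31 (-0.68, adjusted p = 0.0154), and Arc (-0.88, adjusted p = 0.00711), Nr4a1 (-0.87, adjusted p = 0.0402) and Npas4 (-1.22, adjusted p = 0.0230) without hippocampus mouse 31 alone. Nr4a1 (-0.93, adjusted p = 0.00665) and Npas4 (-1.14, adjusted p = 0.0471) passed without cortex mouse 11, and Npas4 with limma-voom (-0.96, adjusted p = 0.0427). The Fosb call was lost without a batch term (-1.15, adjusted p = 0.0528) and without control cortex mouse 20 (-0.78), hippocampus mouse 20 (-1.11) or hippocampus mouse 37 (-1.09). The Egr4 call was lost without cortex mouse 20 (-0.56), hippocampus mouse 11 (-0.56) or hippocampus mouse 20 (-0.55). The 6 striatum markers were lower in hippocampus in 6 of 6 cases, with a median of -2.82, and their part in the tissue difference was not tested.

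In GA-Camk2a mice 3 of 8 members tested were lower in hippocampus than in cortex and Egr3 was higher, against 15.9% lower and 17.3% higher over all genes tested. Junb (-0.87, SE 0.15), Egr1 (-0.86, SE 0.15) and Egr4 (-0.75, SE 0.21) fell, with adjusted p from 0.000289 to 0.0106. Egr3 rose by 0.60 (SE 0.17, adjusted p = 0.0127), from a mean of 11.5 ± 2.88 CPM in cortex to 17.6 ± 4.15 CPM in hippocampus (SD, n = 6 each). In control mice Egr3 held 33.6 ± 10.6 CPM (SD, n = 5) and 27.9 ± 2.35 CPM (SD, n = 4). With counts thinned to the smallest library, Egr3 (0.56, adjusted p = 0.0767) and Egr4 (-0.68, adjusted p = 0.0936) missed the threshold in GA-Camk2a mice. Bdnf stood at 0.44 (adjusted p = 0.0907) and passed when paired by mouse (0.49, adjusted p = 0.00284), with thinned counts (0.58, adjusted p = 0.0417), without the filter on low counts (0.44, adjusted p = 0.0121), and without cortex mouse 34 (0.53, adjusted p = 0.0439) or hippocampus mouse 30 (0.60, adjusted p = 0.0157).

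**Figure D4:**
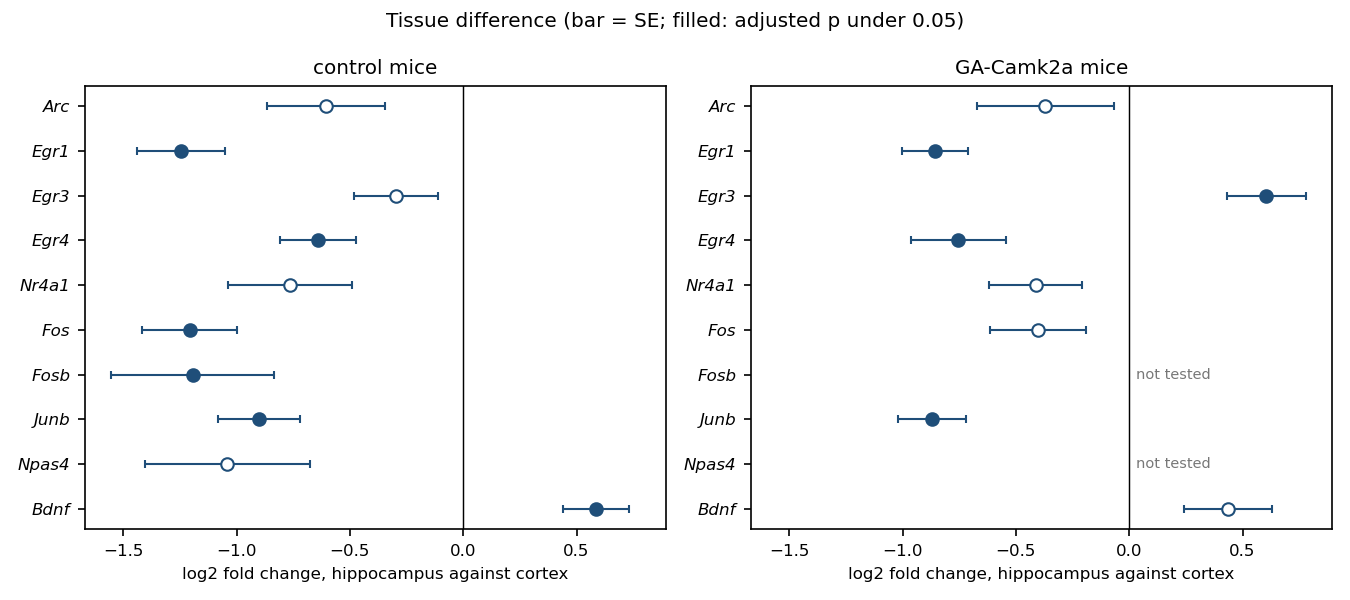
The log2 fold change of hippocampus against cortex is plotted for each gene in control mice (left) and GA-Camk2a mice (right), with SE bars and filled circles where the adjusted p was below 0.05. Egr1, Egr4 and Junb lie below 0 in both panels and Bdnf above 0 in both, while Egr3 lies at -0.30 in control mice and at 0.60 in GA-Camk2a mice.

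The mean levels of Arc, Egr1, Egr4 and Nr4a1 came in the same order over the 4 groups, control cortex highest, then control hippocampus, GA-Camk2a cortex and GA-Camk2a hippocampus. For Arc the means were 84.1, 59.5, 28.9 and 22.9 CPM in that order, and the tissue difference did not pass the test as fitted in either genotype, with the exceptions in control mice given above. For Egr1 they were 106, 46.9, 40.1 and 23.8 CPM, and the ranges of control hippocampus and GA-Camk2a cortex overlapped. Fos was highest in control cortex at 26.3 ± 9.09 CPM (SD, n = 5), while its other group means lay between 12.2 and 15.8 CPM with overlapping ranges. For Bdnf control hippocampus was highest at 74.8 ± 13.8 CPM (SD, n = 4) and GA-Camk2a cortex lowest at 41.5 ± 14.1 CPM (SD, n = 6).

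Variation beyond the groups was read from residuals. Residuals of log2 CPM from group and batch were correlated for the 8 members tested in every comparison, Arc, Fos, Junb, Egr1, Egr3, Egr4, Nr4a1 and Bdnf. The median Pearson r over their pairs was 0.55 across the 21 libraries, against a median of 0 over all pairs of the 11856 other genes with an average log2 CPM of at least 3, with Arc and Fos at 0.78, Arc and Nr4a1 at 0.75, and Egr1 and Egr4 at 0.68. At the other end, Junb stood at -0.01 with Bdnf and at 0.06 with Egr3. These libraries share depth and tissue makeup across genes. Whether other sets of genes of 1 cell type also exceed the median over all pairs was not tested. Without the highest library (GA-Camk2a cortex 34) and the lowest (control cortex 11) the median of the members was 0.38.

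The mean residual of the 8 members was 0.51 in cortex and 0.49 in hippocampus of GA-Camk2a mouse 34, and 0.46 and 0.32 in control mouse 31. It was -0.56 and -0.23 in control mouse 11. Over the 10 mice with both tissues the mean residuals correlated at r = 0.79, and at 0.53 over 8 mice without mice 34 and 11. By gene the correlation was 0.80 for Arc, 0.66 for Nr4a1, 0.59 for Egr3, 0.50 for Egr4, 0.39 for Bdnf, 0.35 for Egr1, 0.34 for Fos and 0.26 for Junb. The median of these 8 was 0.45, against a median of 0.09 over the 11856 other genes, and without mice 34 and 11 it was 0.10 against 0.12. Without mice 31 and 34 altogether, all 6 cortex calls held, and all hippocampus calls held except Junb (-0.41, adjusted p = 0.0848).

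**Figure D5:**
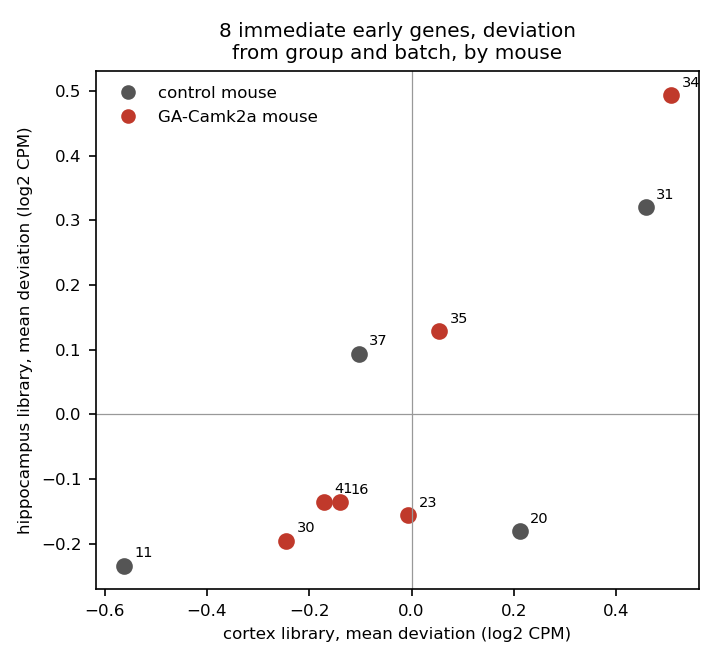
Each point is 1 of the 10 mice with both tissues, controls in grey and GA-Camk2a in red, labelled with the mouse number. The axes give the mean deviation of 8 immediate early genes from their group and batch, in log2 CPM, in the cortex library (horizontal) and the hippocampus library (vertical). Mice 34 and 31 lie at the upper right, at 0.51 and 0.49 and at 0.46 and 0.32, and control mouse 11 at the lower left.

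The genes outside the set whose residuals were most like the mean residual of the 8 members, among 11856 genes with an average log2 CPM of at least 3, were Ina (r = 0.87), Zbtb7a (0.85), Rrs1 (0.84), Zfp180 (0.81) and Mtmr6 (0.81), over the 21 libraries. Without the highest and the lowest library Ina still ranked 4 and Zfp180 ranked 87. Ina encodes the neuronal intermediate filament internexin. None of the 5 is an immediate early gene of the fixed lists.

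The wider programme around the members was read from lists. Of 28 other immediate early genes, 20 were tested in cortex, where 6 fell and 1 rose, and 22 in hippocampus, where 4 fell and 3 rose. The median log2 fold change was -0.32 in cortex and 0.11 in hippocampus. The relatives of Nr4a1 fell in both tissues, with log2 fold changes for Nr4a2 of -1.16 (SE 0.23, adjusted p = 0.00194) in cortex and -0.94 (SE 0.21, adjusted p = 0.00871) in hippocampus, and for Nr4a3 of -0.88 (adjusted p = 0.0221) and -0.81 (adjusted p = 0.0415). Homer1, a synaptic scaffold whose short form is the activity-induced one, fell as well (-1.12, SE 0.17, adjusted p = 8.04e-05 in cortex and -0.55, SE 0.13, adjusted p = 0.0108 in hippocampus), and so did the factor Klf10 (-0.59, adjusted p = 0.00347 and -0.45, adjusted p = 0.0124).

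Ier5 fell in cortex (-0.66, adjusted p = 0.00211) and stood at 0.22 in hippocampus (adjusted p = 0.443), and Egr2, the remaining EGR factor, fell in cortex (-1.55, SE 0.37, adjusted p = 0.00709) and was left out by the filter on low counts in hippocampus. Gadd45g, a stress-induced gene of DNA repair and demethylation, rose by 0.56 (adjusted p = 0.00873) in cortex and 0.52 (adjusted p = 0.0186) in hippocampus. Ccn1 (1.27, adjusted p = 0.0263) and Zfp36 (0.93, adjusted p = 0.0284), which glia and vessels also express, rose in hippocampus. Jun did not pass in either tissue (0.27, adjusted p = 0.292 and -0.08, adjusted p = 0.685).

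Of 22 genes of the later activity response, 20 were tested in cortex, where 5 fell and 1 rose, and 19 in hippocampus, where 4 fell and 1 rose. Nrn1, a neurite growth factor at the cell surface, fell in both (-0.67, adjusted p = 0.000914 and -0.77, adjusted p = 0.000139). Rgs4 (-0.91, adjusted p = 6.50e-06) and Penk (-1.35, adjusted p = 0.000134) fell in cortex and stood at -0.23 and -0.02 in hippocampus. Penk, the precursor of enkephalins, is abundant in striatum, and its genotype effect differed between the tissues (interaction 1.34, adjusted p = 0.0423). Nptx1 (-0.68, adjusted p = 0.000127) and Plk2 (-0.62, adjusted p = 0.00260) fell in hippocampus and stood at -0.13 and -0.19 in cortex.

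Of 20 upstream kinases and factors, all 20 were tested in both tissues, 5 fell in each, and 1 rose in cortex. The calcium-dependent kinases Camkk2 (-1.08, adjusted p = 5.65e-07 in cortex and -0.90, adjusted p = 0.000105 in hippocampus) and Camk4 (-0.87, adjusted p = 0.000387 and -0.64, adjusted p = 0.00554) fell in both. Mef2c fell in cortex (-0.69, adjusted p = 9.96e-05) and not in hippocampus (0.27, adjusted p = 0.183), a difference that passed the interaction test (0.93, adjusted p = 0.0168). Creb1 stood at 0.30 (adjusted p = 0.208) and 0.27 (adjusted p = 0.0979) and Srf at 0.05 and -0.06, and neither passed the test.

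Of 7 partners, repressors and receptors of the members, 6 were tested in each tissue. The gene of the sorting receptor of BDNF, Sort1, fell in both (-0.46, adjusted p = 0.0162 and -0.47, adjusted p = 0.0113). Ntrk2, which encodes TrkB and is also strong in astrocytes, rose in hippocampus (0.40, adjusted p = 0.00678) and stood at 0.17 in cortex (adjusted p = 0.194).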

How the data were processed

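Bulk RNA of cortex and hippocampus was measured with prime-seq, which barcodes each sample early and reads the 3′ ends of transcripts. Reads were demultiplexed by the authors, and zUMIs assigned them to genes on GRCm39 with an added GFP sequence. The submitters' processing notes also name FastQC 0.11.8, cutadapt 1.12, STAR and DESeq2 1.44. The deposited values are raw counts, whole numbers per gene and library. Whether these are reads or unique molecular identifiers, the annotation release, the use of introns and the strand are not given in the sources used here, so overlapping genes and the isoforms of a gene cannot be separated. The table held 64362 rows (64361 genes and GFP, which stayed out of library sizes and tests), and 0 columns were unused. Symbols came from GENCODE by Ensembl number and covered 43308 rows with 96.1% of the counts.

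Groups, mouse numbers and batch came from the labels. The study's text gives other numbers of control mice per tissue than the labels, which were followed. Genotypes were compared within each tissue, tissues within each genotype, and the 2 genotype effects with each other, with edgeR 4.0.16 in R 4.3.3 (TMM, filterByExpr with a minimum count of 10, quasi-likelihood F-test, batch as covariate, Benjamini-Hochberg over all genes tested, threshold 0.05). Where no tool is named, an adjusted p-value is that of edgeR. The study's methods name DESeq2 and no covariate, and that fit was an alternative beside DESeq2 1.42.0 with batch, limma 3.58.1, other scalings, no filter, thinned counts, single batches and leaving out libraries. The equal-weight marker scaling and the fits without mice 31 and 34 or without the 3 libraries highest in Rorb were added after the data were seen. The procedure was tested on simulated counts that gave every gene the same spread and no shared effect of the mouse. That test does not show how the procedure fares on members of another spread. Cortex and hippocampus libraries of the same number were taken to come from the same mouse. Their deviations from the group means correlated over all genes at -0.27 to 0.35 in the 10 mice. These values lie on both sides of 0 and do not show the pairing. The fit with mouse as a replicate block is given beside the calls it changes.

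Residuals for the correlations were taken from log2 CPM with a prior count of 2. All 10 members were named. From the other lists, genes past the threshold in both tissues and the 3 with the lowest adjusted p per tissue were named, marker lists are given as counts, some with sums, and Egr2, Ccn1, Zfp36, Jun, Creb1, Srf, Ntrk2 and the markers Prox1, Cux2, Tbr1, Fezf2, Spink8, Fibcd1, Rorb, Drd1 and Adora2a were named after their values were seen. A gene that this rule names is not reported here. The members and lists were chosen with earlier results of these data known. Total counts of 1048201 to 5888102 per library leave genes of a few counts, such as Npas4, with wide counting error. Within a group, replicates are separate mice. Fits over both tissues took the 2 libraries of a mouse as separate, except where the mouse was a block. The correlations over the 21 libraries did so too.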

Additional observations from a re-analysis of the deposited data

Results flagged for a closer look

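In 4 of the 40 combinations of a member and a group, 1 library stood apart from the rest of its group by Dixon's test, where chance flags about 1 in 20 groups. In GA-Camk2a cortex, mouse 34 held 56.5 CPM of Arc against 17.2 to 28.7 CPM in the others, and 16.9 CPM of Egr3 against 8.99 to 11.6 CPM. In GA-Camk2a hippocampus the same mouse held 20.8 CPM of Egr4 against 8.01 to 11.1 CPM. In control cortex, mouse 31 held 42.1 CPM of Fos against 20.0 to 25.4 CPM. These libraries rest on 87 counts of Arc, 26 of Egr3, 47 of Egr4 and 115 of Fos.

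The GFP row of the table, which no comparison used, reached 4 counts in a GA-Camk2a cortex library against at most 2 in control cortex, and 1 count in GA-Camk2a hippocampus against 0 in control hippocampus. At these counts the row does not tell the genotypes apart, and it was not used to check the labels.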

How the results depend on the processing

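Arc, Egr1 and Egr3 fell in cortex under all 13 other settings and in all 11 fits that left out 1 library. In hippocampus Arc, Egr1, Egr3 and Egr4 fell in all 10 such fits, and each lost its call in batch 1 alone and with excitatory neuron scaling. With neuron scaling Egr3 (-0.26), Nr4a1 (-0.21) and Junb lost their hippocampus calls, and Fos (0.50) and Fosb (0.82) were called higher. This scaling moved the median of all genes in hippocampus to 0.48. It called 8849 of the 14884 genes tested there, 98.7% of them higher. Members called in cortex were 3 in batch 2 alone, 3 with excitatory neuron scaling and 3 with neuron scaling, and in hippocampus 0 in batch 1 alone. With excitatory neuron scaling by summed counts or with equal weights, values in hippocampus reversed for Junb (0.53 and 0.48), Egr3 (0.26 and 0.22), Nr4a1 (0.32 and 0.26) and Bdnf (0.64 and 0.60). In cortex Bdnf reversed with equal weights and was called higher (0.39). By construction these scalings move every gene by the fall of the markers. Genes called in cortex were 876 in batch 1, 230 in batch 2, 8295 with excitatory, 7265 with neuron and 8852 with equal-weight scaling, and 1041 without mice 31 and 34. In hippocampus they were 958 with thinned counts, 115 in batch 1, 681 in batch 2, 14149 with excitatory, 8849 with neuron and 13916 with equal-weight scaling, and 1005 without the 3 libraries highest in Rorb. Genes whose genotype effect differed between tissues were 59 in the fit reported, 127 with DESeq2, 36 without batch, 98 with DESeq2 without batch, 159 without a filter, 19 thinned and 7 without mice 31 and 34. Thinning left 1392 genes between tissues in control and 2872 in GA-Camk2a mice. The cause of these moves, beside fewer libraries or counts, was not tested. Leaving out 1 library gave 1038 to 1526 genes and 4 to 7 members in cortex, 1038 to 1831 genes and 4 to 6 members in hippocampus, 22 to 66 genes and 0 to 1 member for the difference of the effects (the lowest counts of genes in all of these without control mouse 31), 1580 to 3168 genes and 4 to 9 members between tissues of control mice, and 3668 to 4262 genes and 4 to 5 members of GA-Camk2a mice. With mouse as a replicate block the difference of the effects gave 67 genes and 1 member, and the tissue comparisons 1961 genes and 7 members in control and 4312 genes and 5 members in GA-Camk2a mice. Within a tissue the genotypes hold different mice, so no block applies there.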
